A study of Mus musculus with 12 samples.

Results

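Hemoglobin transcripts were followed through 12 bulk tumor libraries as the part of the transcriptome that red blood cells carry. The 5 genes are Hba-a1 and Hba-a2, which encode the adult alpha chain of hemoglobin, Hbb-bs and Hbb-bt, which encode the adult beta chain, and Alas2, the erythroid form of the enzyme that begins heme synthesis. They are 5 of the 38924 genes in the count tables. They were picked by symbol as a readout of blood content, with their levels in the 3 treatment groups of these same tumors already known, so their differences between groups are described here and carry no p-value. All 5 passed the filter on low counts, Hbb-bt and Alas2 only through the control tumors.

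The tumors were pancreatic neuroendocrine tumors (PanNETs, insulin-producing islet tumors) of RIP1Tag2 mice on the C57Bl6 strain, in which the insulin promoter drives a viral oncogene in pancreatic beta cells. All mice entered treatment at 15.5 weeks of age and were treated for 4 days, control mice with saline (tumors 1 to 4), sunitinib-treated mice with that VEGF and PDGF receptor inhibitor alone (tumors 5, 6, 8 and 12), and R+S-treated mice with it and rapamycin, an mTOR inhibitor (tumors 4, 5, 7 and 10). Numbers are those in the sample labels. The labels also carry a prefix, shared by the 4 control tumors, by sunitinib tumors 5, 6 and 8, and by R+S tumors 5 and 7. They do not say whether a prefix is a mouse or a batch, so prefix and treatment cannot be told apart, and tumors that share a prefix may not be independent.

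Mature mouse red cells have no nucleus but keep some RNA, most of it hemoglobin RNA, in their youngest circulating form, the reticulocyte. Hemoglobin is made of a pair of alpha and a pair of beta chains, each holding a heme, and red cell precursors in marrow and spleen turn on both chains, the heme enzymes and a set of membrane proteins under factors such as GATA1 and KLF1. Hemoglobin RNA in a solid tissue is commonly taken as a sign of the blood it holds.

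The hemoglobin genes come as pairs of near-identical copies, which bears on every value below because the counting left out any read with more than 1 alignment. Hba-a1 (ENSMUSG00000069919) lies at chr11:32283511-32284465 and Hba-a2 (ENSMUSG00000069917) at chr11:32296489-32297298, both on the plus strand. Hbb-bs (ENSMUSG00000052305) lies at chr7:103826534-103828096 and Hbb-bt (ENSMUSG00000073940) at chr7:103812524-103813996, both on the minus strand. Alas2 (ENSMUSG00000025270) lies at chrX:150547375-150570638 on the plus strand. Positions are those of GENCODE M21 on GRCm38, and all 5 genes are protein-coding. The coding sequences of Hba-a1 and Hba-a2 differ at 1 of 426 bases (C381T, Hba-a1 to Hba-a2, counted from the first base of the coding sequence), and those of Hbb-bs and Hbb-bt at 1 of 441 (C417T, Hbb-bs to Hbb-bt). Neither difference changes the protein, so that 0 of 142 residues differ within the alpha pair and 0 of 147 within the beta pair. The stretches around these bases, coding positions 367 to 395 and 403 to 431, show how little separates the copies. The differing base is in capitals.
Hba-a1: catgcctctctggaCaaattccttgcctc
Hba-a2: catgcctctctggaTaaattccttgcctc
Hbb-bs: gtggctggagtggcCgctgccctggctca
Hbb-bt: gtggctggagtggcTgctgccctggctca

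To see how much of each gene could receive uniquely aligned reads, every 50-base word of its transcripts was looked up in all other GENCODE transcripts, in either orientation. Of the words of Hba-a2, 89.3% also occur in Hba-a1, and 72.3% of those of Hba-a1 occur in Hba-a2. For the beta pair the shares were 53.2% for Hbb-bs and 58.3% for Hbb-bt, and no word of the 4 genes was shared with a gene outside its own pair. Alas2 shared 11.5% of its words, 263 with Apex2 and 12 with the microRNA gene Mir3620, both annotated on the opposite strand of the same locus. Hba-a2 thus had 66 words of its own and Hba-a1 had 211, against 273 for Hbb-bt, 335 for Hbb-bs and 2123 for Alas2.

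**Figure D1:**
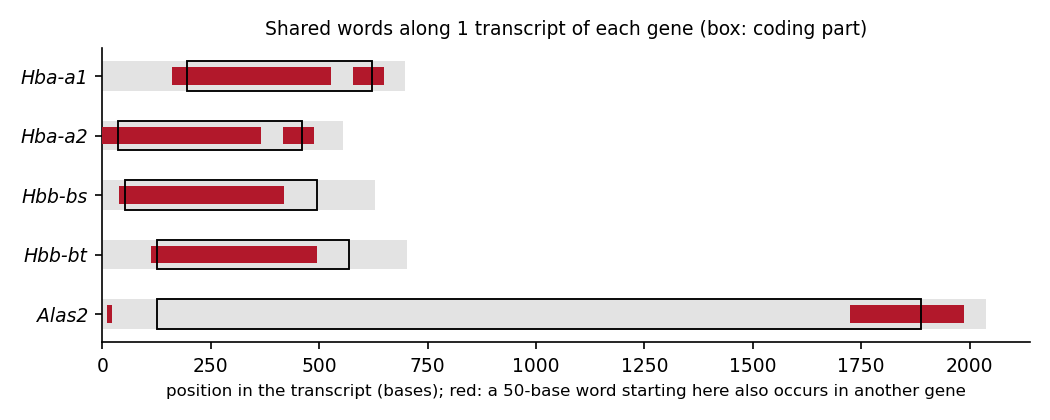
Shared sequence along 1 transcript of each gene. The grey bar is the transcript in bases, the box its coding part, and red marks positions where a 50-base word begins that also occurs in the transcripts of another gene. Most of the coding part of the 4 hemoglobin genes is red, and in Alas2 only its ends are.

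The 4 hemoglobin genes and Alas2 also share letters in front of their start sites, which are shown because the 5 genes moved together. The 100 bases before the RefSeq start (GRCm38.p6) were searched on both strands for 4 short motifs. These were CACCC, the box that KLF1 binds, and CCAAT, a common promoter box. The others were ATATAA, a form of the TATA box, and the GATA motif, which is those 4 letters with A or T in front and A or G behind. All 5 genes matched an entry in the promoter table. The GENCODE models of all 5 genes begin further upstream than these RefSeq starts, so that part or all of a window can lie within a GENCODE first exon. Matches are in capitals, and a match on the other strand appears as its reverse complement. Hba-a2 is at chr11:32296392-32296491, Hbb-bs at chr7:103827929-103828028, Hbb-bt at chr7:103813924-103814023 and Alas2 at chrX:150547317-150547416.
Hba-a2: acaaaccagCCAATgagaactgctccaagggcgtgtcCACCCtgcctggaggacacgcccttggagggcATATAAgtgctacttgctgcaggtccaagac
Hbb-bs: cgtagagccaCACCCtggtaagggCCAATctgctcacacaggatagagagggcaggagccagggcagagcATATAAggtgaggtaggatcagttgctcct
Hbb-bt: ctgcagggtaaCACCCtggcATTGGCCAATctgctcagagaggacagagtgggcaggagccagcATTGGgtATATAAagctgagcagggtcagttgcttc
Alas2: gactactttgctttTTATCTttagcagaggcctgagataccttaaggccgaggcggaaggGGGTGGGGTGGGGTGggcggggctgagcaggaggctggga

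The window of Hba-a1 equals that of Hba-a2 over 97 bases when moved by 3. The windows of the beta pair agree at 73.7% of 99 bases. CACCC was found in all 5 windows and in 27.2% of the 32851 promoters in the table. CCAAT and ATATAA were found in the 4 hemoglobin genes and in 18.9% and 3.74% of all promoters. Of the 5 windows only that of Alas2 held the GATA motif, which 10.4% of promoters hold. Such matches describe letters and are not shown to be sites.

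Each library held 31872342 to 44215054 reads on genes (median 38526164), and a further 21203479 to 48418780 alignments per tumor were listed as falling on several places. Levels are given as normalized CPM, that is, counts per 1e6 reads of the library size after edgeR's TMM scaling. In sunitinib tumor 6 the summed level of 12 beta cell genes, insulin among them, was 4843 CPM against 34589 to 80355 CPM in the other 3 sunitinib-treated tumors and 40138 to 64335 CPM in control tumors. Genes of pancreatic acinar cells, the enzyme-secreting cells around the islets, summed to 41.7 to 142 CPM in control tumors, 12783 to 45632 CPM in sunitinib-treated tumors and 3443 to 19271 CPM in R+S-treated tumors, with 21 of 22 genes higher in each treated group at an adjusted p under 0.05 (edgeR's quasi-likelihood test), where 1.93% of all genes were higher with sunitinib and 1.55% with R+S. Their part in the results below was not tested. Taking the 22 acinar genes out of the libraries before normalization left every difference of the 5 genes within 1 SD of the replicates. That step cannot show whether acinar tissue mattered, since these genes held at most 45632 of 1e6 counts and only they were taken out.

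Reads on the 4 hemoglobin genes together made up 363, 178, 158 and 65.9 CPM in control tumors 1 to 4. In sunitinib tumors 5, 6, 8 and 12 they made up 1.56, 2.79, 2.01 and 4.75 CPM. In R+S tumors 4, 5, 7 and 10 they made up 21.7, 13.0, 2.96 and 3.17 CPM. Every treated tumor thus lay below every control tumor, while the treated groups overlapped each other. The means were 191 ± 125 CPM in control tumors, 2.78 ± 1.41 CPM with sunitinib and 10.2 ± 9.001 CPM with R+S (SD, n = 4 each). On the log2 scale the sunitinib group was lower than the control group by a difference of -5.99 ± 0.61 (SE), or 63.5-fold, and the R+S group by -4.49 ± 0.88, or 22.4-fold. The lowest control tumor was 13.9 times the highest sunitinib-treated tumor and 3.03 times the highest R+S-treated tumor. R+S exceeded sunitinib by 1.501 ± 0.804, a difference of less than 2 SE between groups that overlapped. The SE of the sum comes from the groups compared alone, and those of single genes below from the fit of 12 tumors. In bulk tumor RNA, fewer red cells and less RNA per red cell cannot be told apart.

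The spread within a group was large. Control tumors, all with 1 label prefix, differed 5.51-fold from lowest to highest. In the R+S group tumors 4 and 5 lay at 13.0 CPM and above, and tumors 7 and 10 at 3.17 CPM and below, inside the range of sunitinib alone. R+S tumors 5 and 7 carry the same prefix and lay at 13.0 and 2.96 CPM. Among sunitinib-treated tumors, the one with a prefix of its own, tumor 12, was the highest. Sunitinib tumor 6, poor in beta cell transcripts, lay between tumors 8 and 12.

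**Figure D2:**
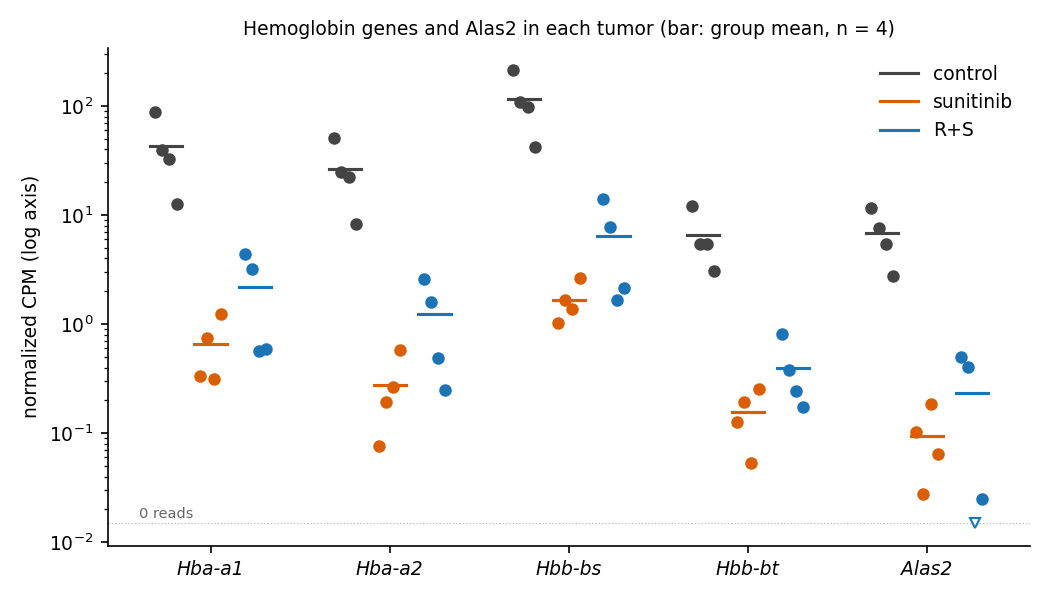
Level of each gene in each tumor, as normalized CPM on a log axis. Points are tumors, bars are group means (n = 4), and the open triangle marks the R+S tumor with 0 Alas2 reads. In all 5 genes the lowest control tumor lies above the highest treated tumor.

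Of the alpha genes, Hba-a1 had 87.3, 39.3, 33.0 and 12.7 CPM in control tumors 1 to 4. It had 0.332, 0.746, 0.317 and 1.25 CPM in sunitinib tumors 5, 6, 8 and 12, and 4.41, 3.18, 0.571 and 0.594 CPM in R+S tumors 4, 5, 7 and 10. The groups kept clear of the controls, and R+S tumors 7 and 10 lay among the sunitinib-treated tumors. Its log2 fold change was -6.04 ± 0.90 (SE) for sunitinib versus control and -4.30 ± 0.82 for R+S versus control.

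Hba-a2 had 51.2, 24.999, 22.5 and 8.20 CPM in control tumors 1 to 4. It had 0.0766, 0.193, 0.264 and 0.578 CPM in the sunitinib tumors, which is 3 to 18 reads, and 2.61, 1.59, 0.490 and 0.248 CPM in the R+S tumors. The order of the control tumors was that of Hba-a1. The log2 fold changes were -6.60 ± 0.93 for sunitinib and -4.44 ± 0.82 for R+S, each within 1 SE of those of Hba-a1.

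Hbb-bs, the beta gene that drew the most reads of the 5 in every tumor, had 212, 109, 97.1 and 41.9 CPM in control tumors 1 to 4. It had 1.02, 1.66, 1.37 and 2.66 CPM in the sunitinib tumors and 13.9, 7.85, 1.66 and 2.15 CPM in the R+S tumors. As with the alpha genes, control tumor 1 was highest and control tumor 4 lowest. Its log2 fold changes were -6.11 ± 0.79 and -4.17 ± 0.72.

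Hbb-bt had 12.1, 5.40, 5.40 and 3.10 CPM in control tumors 1 to 4. The sunitinib tumors held 5, 7, 2 and 8 reads of it (0.0528 to 0.257 CPM), and the R+S tumors 29, 15, 9 and 7 reads (0.173 to 0.805 CPM). R+S tumors 4 and 5 held the most reads of the treated tumors, and the counts of the others were too low to order them. Its log2 fold changes were -5.36 ± 0.66 and -4.02 ± 0.61, the smallest of the 5 and within 2 SE of the others.

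Alas2, which feeds heme to hemoglobin in red cell precursors and has no near-identical copy among the transcripts, had 11.6, 7.62, 5.43 and 2.76 CPM in control tumors 1 to 4. The sunitinib tumors held 4, 1, 7 and 2 reads and the R+S tumors 18, 16, 0 and 1 reads. The 0 reads in R+S tumor 7 allow a level of up to 0.0816 CPM by counting error alone (3 reads). The control tumors fell in the order of the hemoglobin genes, and the R+S tumors with more than 1 read of Alas2 were the same 2 in which hemoglobin was highest. Its log2 fold changes were -6.12 ± 1.03 and -4.87 ± 0.95.

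All 5 genes were lower than in every control tumor in both treated groups. Over all 16645 genes tested, groups did not overlap in that direction in 5.76% of genes for sunitinib and 11.9% for R+S. Since the genes were picked with these levels known, nothing is read from this count. Between R+S and sunitinib the log2 fold changes were 1.74 ± 0.79 for Hba-a1, 2.16 ± 0.81 for Hba-a2, 1.94 ± 0.68 for Hbb-bs, 1.34 ± 0.62 for Hbb-bt and 1.24 ± 0.99 for Alas2. All 5 pointed to higher levels in R+S, and in all 5 the groups overlapped. These SE come from the fit of 12 tumors. The genes of a pair are near-identical copies, so the 5 values are not 5 separate results.

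**Figure D3:**
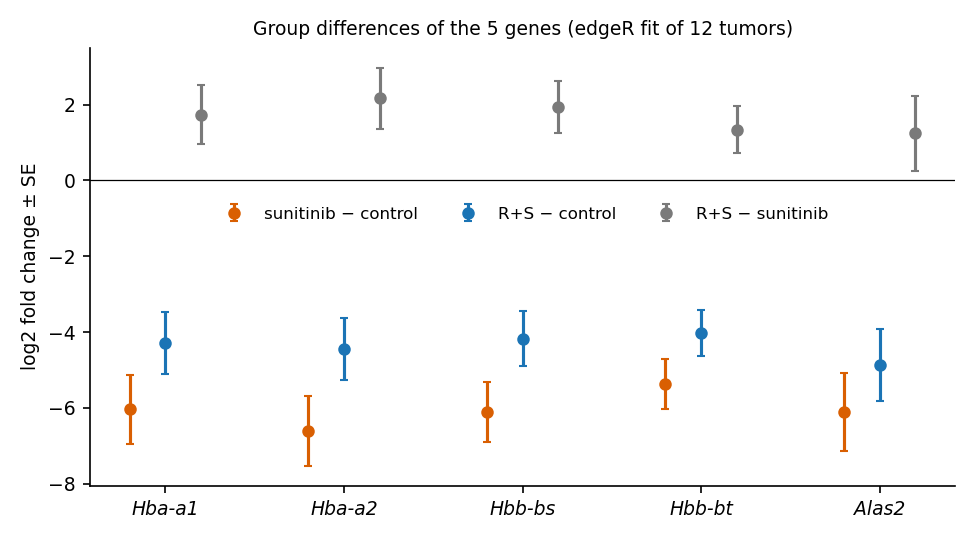
Log2 fold change of each gene in the 3 comparisons, with bars of 1 SE from the fit of 12 tumors. Both comparisons with control lie between -6.60 and -4.02, and those of R+S with sunitinib lie between 1.24 and 2.16.

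The mixture of the chains was steadier than their amount. In control tumors Hba-a1 took 63.0, 61.1, 59.5 and 60.8% of the alpha reads. Hbb-bt took 4.73 to 6.89% of the beta reads, and the alpha pair 31.8 to 38.2% of all hemoglobin reads. Summed over the tumors of a group, the alpha share was 36.7% of 32285 reads in controls, 33.4% of 386 with sunitinib and 33.5% of 1536 with R+S, so that it moved by little where the reads themselves fell many times over. Hba-a1 took 70.5% of 129 alpha reads with sunitinib and 64.1% of 515 with R+S, against 61.8% in controls. In single sunitinib tumors this share lay between 54.5% of 22 reads and 81.2% of 16 reads. The Wilson 95% intervals of these extremes, 34.7 to 73.1% and 57.0 to 93.4%, overlap each other and the control values. In sunitinib tumor 6 the share was 79.4% of 34 reads. Its interval, 63.2 to 89.7%, lay just above the highest control value, 63.0%, and overlapped the interval of that control tumor, 61.9 to 64.2%. Hbb-bt took 8.56% of 257 beta reads with sunitinib and 5.88% of 1021 with R+S, against 5.35% in controls. Single tumors ran from 3.70 to 11.1% with sunitinib and from 4.60 to 12.9% with R+S. The highest, R+S tumor 7 with 70 beta reads, had an interval of 6.91 to 22.7%, just above the highest control value. It overlapped the interval of that control tumor, 5.75 to 8.24%. Intervals cover counting error only.

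Alas2 was a small share of the reads in all groups. It made up 3.11 to 4.10% of the reads on the 5 genes in control tumors, 3.50% of the 400 such reads in the sunitinib group and 2.23% of the 1571 in the R+S group, the last of these under the range of the control tumors. Single sunitinib tumors ran from 0.980% of 102 reads to 8.43% of 83 reads. The highest, sunitinib tumor 8, had a Wilson 95% interval of 4.15 to 16.4%, above every control value. It overlapped the interval of the highest control tumor, 3.66 to 4.59%. The intervals of sunitinib tumors 5, 6 and 12 held the control values. In R+S tumor 10, 1 of 129 reads was from Alas2, or 0.775% (Wilson 95% interval 0.137 to 4.26%), an interval that holds the control values. The interval of R+S tumor 4 (2.24%, 1.42 to 3.52%) and that of R+S tumor 7 (0 of 109 reads, 0 to 3.40%) lay below the highest control values, 4.02 and 4.10%, and held the lower ones.

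Per kilobase of exon, the control means were 150 CPM for Hbb-bs, 53.1 for Hba-a1, 40.1 for Hba-a2, 9.25 for Hbb-bt and 2.86 for Alas2. These levels understate the hemoglobin genes, and not by the same factor. Divided by exon length, Hba-a1 exceeded Hba-a2 by 1.21 to 1.40 times in the 4 control tumors. Divided instead by the number of 50-base words that no other gene holds, it reached 0.459 to 0.533 times Hba-a2, and 0.653 to 0.758 times with words of 100 bases. Which alpha gene is the higher one therefore turns on how lost reads are allowed for. The lead of Hbb-bs over Hbb-bt, 12.4 to 18.4 times per exon length, was 11.0 to 16.4 times on either word length. The read length is not given in the sources used here, and this second scale was added after the values had been seen.

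Other genes of the red cell lineage did not follow hemoglobin as a group. Of 57 other genes of heme synthesis, the red cell membrane, erythroid regulation and late red cell maturation, 56 were found in the tables and 40 passed the filter. By edgeR's quasi-likelihood test, 2 were lower and 0 higher in sunitinib-treated than in control tumors past an adjusted p of 0.05, where 2.55% of all genes were lower and 1.93% higher (at an unadjusted p under 0.05, 4 were lower and 4 higher, and DESeq2 called 3 lower and 1 higher). Between R+S-treated and control tumors 1 was lower and 1 higher, against 2.61% and 1.55% of all genes. The median log2 fold change of the 40 genes was -0.04 in both comparisons, beside 0.03 and 0.01 over all genes. By overlap of groups, 3 of the 40 lay below and 1 above all control tumors with sunitinib, beside 5.76% and 5.17% of all genes. With R+S 5 lay below and 4 above, beside 11.9% and 11.6% of all genes.

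Markers of nucleated red cell precursors had few reads in every group. Epb42 (protein 4.2) had 0 to 4 reads per tumor, Rhag (an ammonia channel of the Rh complex) 0 or 1, and the erythroid transcription factor gene Gata1 0 to 3. Slc4a1, the anion exchanger band 3, had 3 to 36 reads in control tumors and 0 to 14 in treated ones. Klf1, an erythroid transcription factor gene, had 7 to 13 reads in control tumors and 5 to 17 in treated ones. These 5 markers summed to 0.549 ± 0.325 CPM in control tumors, 0.535 ± 0.333 CPM with sunitinib and 0.371 ± 0.126 CPM with R+S (SD, n = 4 each), with all groups overlapping. In control tumors 1 to 4 the sum was 1.01, 0.556, 0.355 and 0.282 CPM, the order of hemoglobin. Sunitinib tumor 12 (1.03 CPM) was the highest of its group, as in hemoglobin. R+S tumor 4, the highest of its group in hemoglobin, was the lowest in the sum (0.194 CPM). At 7 to 47 reads per tumor such orders are descriptions. The name erythroid is given to the 5 genes by what they encode and does not rest on these markers. The embryonic globins Hbb-y and Hbb-bh1 had 0 reads in all 12 tumors, and Hba-x 0 or 1. Epo, the hormone of red cell formation, had 0 reads in all 12.

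The 8 other enzymes of heme synthesis, which most cells use, were called in 0 cases against control in either treated group by edgeR's quasi-likelihood test. At an unadjusted p under 0.05 there were 1 with sunitinib and 4 with R+S, and DESeq2 called 1 and 0. Their summed level was 329 ± 6.60, 308 ± 34.4 and 311 ± 9.53 CPM (SD, n = 4) in control, sunitinib-treated and R+S-treated tumors. Alas1, the housekeeping counterpart of Alas2 and named here after its values had been seen, had 42.9 ± 2.98 CPM in control tumors and 29.8 ± 5.00 CPM with sunitinib, a log2 fold change of -0.53 ± 0.14 (adjusted p = 0.0607 in edgeR's quasi-likelihood test). Ppox, the most abundant of the list, differed by 0.03 ± 0.13 and -0.05 ± 0.13. Fech, which inserts iron to form heme, was higher with R+S than with sunitinib by 0.49 ± 0.11 (adjusted p = 0.0328 in the same test). That call was lost without any of 7 single tumors, among them each of the 4 R+S tumors.

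Of the red cell membrane genes 11 of 18 passed the filter. Gypc, which encodes glycophorins C and D and is also expressed outside red cells, fell from 2.26 ± 0.324 CPM in control tumors to 0.824 ± 0.306 CPM with sunitinib, by -1.45 ± 0.29 on the log2 scale (edgeR adjusted p = 0.0148, and 0.0561 without control tumor 3). Sptb, the beta spectrin gene, rose with R+S from 47.4 ± 5.25 to 76.5 ± 11.0 CPM, by 0.69 ± 0.15 (adjusted p = 0.0233). That call was lost when any of 6 single tumors was left out (control tumors 2, 3 and 4 and R+S tumors 4, 5 and 7), with an adjusted p of up to 0.0943. The 2 most abundant members, Epb41 and Tmod1, had log2 fold changes of -0.65 ± 0.27 and -0.75 ± 0.54 with sunitinib and 0.15 ± 0.27 and 0.68 ± 0.54 with R+S, none past the threshold in edgeR. The medians of the 11 genes were -0.65 with sunitinib and -0.15 with R+S.

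Among erythroid regulators 6 of 11 passed the filter. Tal1, a transcription factor of blood and endothelial cells, was the only one called by edgeR's quasi-likelihood test, and DESeq2 also called Zfpm1, a GATA1 partner, higher with sunitinib (log2 fold change 0.96, adjusted p = 0.0338, and 0.124 in edgeR). Tal1 fell from 2.37 ± 0.748 CPM to 0.422 ± 0.0944 CPM with sunitinib and 0.801 ± 0.114 CPM with R+S, by log2 fold changes of -2.48 ± 0.31 (edgeR adjusted p = 0.000532) and -1.56 ± 0.29 (adjusted p = 0.0122). The second was lost without control tumor 3 or without R+S tumor 4 or 7, with an adjusted p of up to 0.0537. Tfrc, the transferrin receptor, which brings iron into cells, changed by 0.27 ± 0.26 and -0.27 ± 0.26, and Bcl11a, which silences embryonic globins, by 1.17 ± 0.91 in both. Of 15 genes of late red cell maturation 0 were called against control in either group by edgeR's quasi-likelihood test (3 and 2 at an unadjusted p under 0.05, 0 and 0 by DESeq2).

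Between R+S and sunitinib 2 of the 40 erythroid genes were higher (Fech and Sptb) and 1 lower (Prdx2, a peroxidase abundant in red cells but made in most tissues), beside 2.63% and 4.58% of all genes. Sptb differed by 0.60 ± 0.15 (edgeR adjusted p = 0.0368) and Prdx2 by -0.75 ± 0.20 (adjusted p = 0.0425). Leaving out each tumor in turn, the call of Sptb was lost in 7 of 12 fits (adjusted p of up to 0.114 in edgeR) and that of Prdx2 in 11 of 12, all but the fit without sunitinib tumor 5 (up to 0.128 in edgeR). This comparison as a whole rested on its tumors: without R+S tumor 5 edgeR called 0 of all genes (3870 at an unadjusted p under 0.05), without R+S tumor 4 or 7 it called 1, and with only the 8 tumors compared it called 3, where the fit of 12 tumors called 1200 and DESeq2 called 3008.

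Genes that take up and break down free hemoglobin and heme gave 0 calls against control in either group by edgeR's quasi-likelihood test, over 12 genes tested (2 and 0 at an unadjusted p under 0.05, 0 and 0 by DESeq2). Hmox1, heme oxygenase, which opens the heme ring, had 47.1 ± 11.1 CPM in control tumors, 72.3 ± 19.4 CPM with sunitinib and 37.0 ± 6.15 CPM with R+S. It was lower with R+S than with sunitinib by -0.97 ± 0.22 (adjusted p = 0.0328), a call lost without any of 6 single tumors, among them the 4 R+S tumors. The ferritin chains Fth1 and Ftl1, which store the iron, changed by 0.36 ± 0.19 and 0.22 ± 0.24 with sunitinib and by 0.27 ± 0.19 and -0.21 ± 0.24 with R+S. Of 10 other globin genes, the embryonic Hbb-y, Hbb-bh1 and Hba-x among them, 3 passed the filter. Of these, 0 were called against control by edgeR (0 and 2 at an unadjusted p under 0.05, 0 and 1 by DESeq2). Cytoglobin (Cygb) had 16.8 ± 6.82, 10.2 ± 6.14 and 6.85 ± 0.628 CPM in the 3 groups, and androglobin (Adgb) 31.8 ± 9.87, 20.6 ± 8.99 and 52.5 ± 14.8 CPM.

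Other cells that travel in blood gave few reads. The 12 platelet genes summed to 9.69 ± 1.97, 8.51 ± 1.74 and 6.89 ± 1.42 CPM in control, sunitinib-treated and R+S-treated tumors, the 12 neutrophil genes to 6.67 ± 1.06, 4.79 ± 1.35 and 6.01 ± 1.68 CPM, and the 12 lymphocyte genes to 24.9 ± 5.99, 17.9 ± 7.42 and 17.3 ± 5.02 CPM (SD, n = 4). Against control, edgeR called 0 of 5 tested platelet genes with sunitinib (0 at an unadjusted p under 0.05, 0 by DESeq2) and 1 with R+S. That gene was Pf4, a platelet chemokine also made by some macrophages, which fell from 1.86 ± 0.952 to 0.300 ± 0.150 CPM with R+S (log2 fold change -2.63 ± 0.55, adjusted p = 0.0218, lost without any of 6 single tumors). Itga2b, the platelet integrin, changed by -0.12 ± 0.25 and -0.66 ± 0.25. Of the neutrophil genes edgeR called Mmp8 alone, higher with sunitinib at 14 to 18 reads per tumor against 1 to 5 in controls, and of the lymphocyte genes Cd79b alone, lower with R+S at 7 to 15 reads against 31 to 41. With sunitinib Cd79b was called by DESeq2 (log2 fold change -1.26, adjusted p = 0.0314) and not by edgeR (-1.25 ± 0.33, adjusted p = 0.0602). The Mmp8 call was lost without control tumor 1, 2 or 4, with an adjusted p of up to 0.0754 by edgeR's quasi-likelihood test. The Cd79b call was lost without control tumor 2, 3 or 4 or R+S tumor 4, 5 or 7, with an adjusted p of up to 0.1002 by the same edgeR test.

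Endothelial genes moved in the direction of hemoglobin. Of 16 genes of the vessel lining, 14 were lower with sunitinib and 13 with R+S at an adjusted p under 0.05, with median log2 fold changes of -2.82 and -1.79. Among all genes tested, 2.55% were lower with sunitinib and 2.61% with R+S. The summed list was 766 ± 95.4 CPM in control tumors, 111 ± 23.3 CPM with sunitinib and 186 ± 23.4 CPM with R+S (SD, n = 4), a fall of 6.97-fold and 4.12-fold where summed hemoglobin fell 63.5-fold and 22.4-fold. Whether hemoglobin and endothelial genes fell by different amounts was not tested. Kdr, the VEGF receptor 2, went from 96.8 ± 14.9 CPM to 3.39 ± 1.46 and 7.70 ± 1.23 CPM. Pecam1 (CD31) went from 84.9 ± 17.7 CPM to 14.4 ± 3.75 and 27.8 ± 2.58 CPM. Vwf, the clotting factor stored in endothelium, had log2 fold changes of -0.12 ± 0.20 and 0.66 ± 0.20 and was not called by edgeR's quasi-likelihood test (adjusted p = 0.0859 with R+S), while DESeq2 called it higher with R+S (adjusted p = 0.0200).

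Within groups the order by endothelial level was not always that by hemoglobin. Control tumor 1, the highest in hemoglobin, was the lowest of the 4 in the endothelial sum (692 CPM), and sunitinib tumor 12, the highest of its group in hemoglobin, was the lowest in endothelium (87.7 CPM). In the R+S group tumor 4 was highest in both, with 220 CPM of endothelial reads, and tumor 5 came next in both, with 182 CPM. With 4 tumors a group such orders are descriptions.

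**Figure D4:**
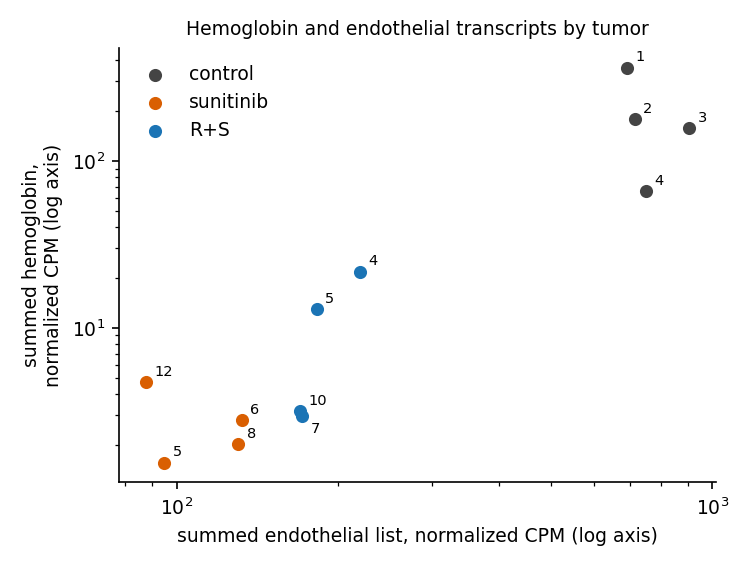
Summed hemoglobin against the summed level of 16 endothelial genes in each tumor, both as normalized CPM on log axes, with tumor numbers beside the points. Control tumors lie at the upper right (65.9 to 363 CPM of hemoglobin, 692 to 904 CPM of endothelial reads), and within the control group the tumor with most hemoglobin has the least endothelial signal.

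The genes whose log2 CPM over the 12 tumors was most like that of summed hemoglobin, out of 14432 compared, were Klf2, a flow-induced transcription factor (Pearson r = 0.968), Acvrl1, the endothelial receptor ALK1 (0.960), Esm1, a marker of sprouting tip cells (0.951), Icam2 (0.942), Emcn (0.941), Eng (0.940), Phf11b (0.939) and Grap (0.938). These 12 points fall into a control cluster and a treated cluster, so the values mostly restate a difference between groups, and no p is given. All 8 were lower in both treated groups than in control at an adjusted p under 0.05. Over all genes 2.55% were lower with sunitinib and 2.61% with R+S. As the 8 were picked for likeness to hemoglobin in these same tumors, nothing is read from their count. For Phf11b the R+S call was lost without R+S tumor 4 or 7 (adjusted p of up to 0.0529 by edgeR's quasi-likelihood test). The change of Esm1, from 54.5 to 1.02 CPM with sunitinib and 2.92 CPM with R+S, was the largest of the 8. When each tumor was left out in turn, 4 to 8 of the 8 names stayed among the top 8, and 4 did when likeness was measured by rank.

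The 5 genes themselves had correlations with the hemoglobin sum over the 12 tumors of 0.998 for Hba-a1, 0.995 for Hba-a2, 0.999 for Hbb-bs, 0.986 for Hbb-bt and 0.966 for Alas2, of which the first 4 are part of the sum. After the group means were taken away, so that only the differences among tumors of a group were left, Alas2, which is no part of the sum, still had 0.822. Outside the 5, the genes most like hemoglobin on that measure included Ube2f (0.918), Resp18 (0.903), Flad1, Lgals3bp and Slc16a13 (each 0.901), Gyg (0.896) and Pigs (0.885), none of them a red cell gene by its known role. None of these 7 was called in any comparison. Leaving out R+S tumor 7 kept 3 of the top 8, as did measuring likeness by rank.

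**Figure D5:**
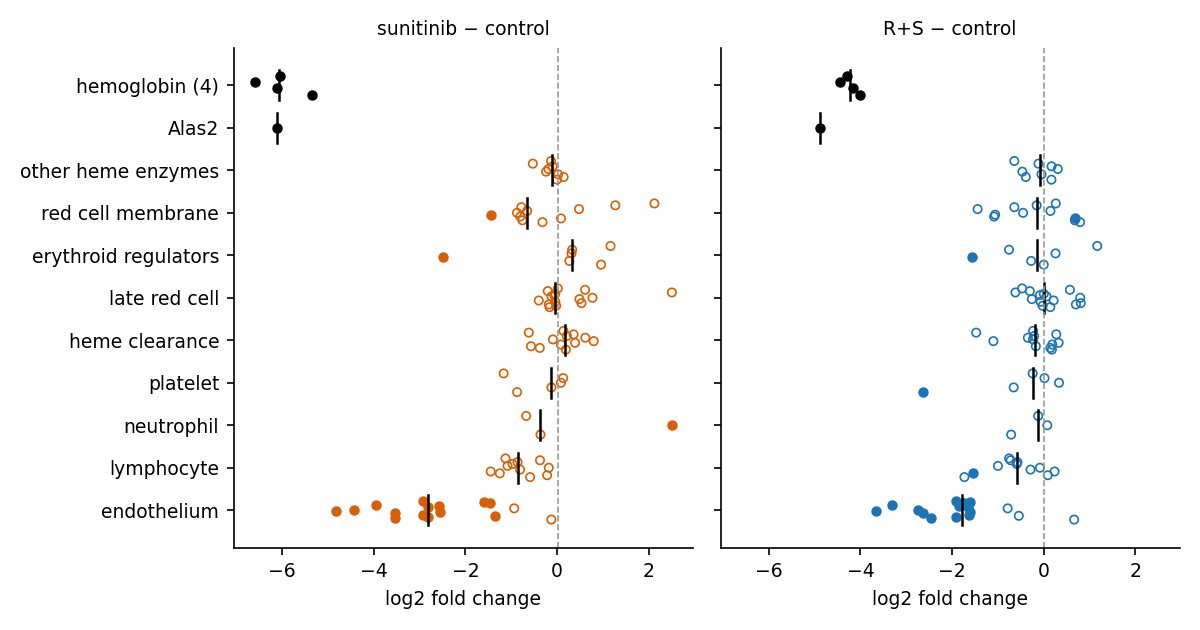
Log2 fold change of each gene that passed the filter, by list, for sunitinib minus control (left) and R+S minus control (right). Filled colored points have an adjusted p under 0.05, open points do not, black points are the 5 genes described without a test, vertical bars are list medians and the dashed line is the median of all genes. Hemoglobin and Alas2 lie at -4.02 and below, the medians of the other red cell lists lie between -0.65 (membrane genes) and 0.32 (regulators) with sunitinib and between -0.15 and 0.00194 with R+S, and the endothelial list centers at -2.82 and -1.79.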

How the data were processed

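RNA of 12 tumors was sequenced as stranded poly(A) libraries. The authors deposited 1 table per tumor of raw counts of reads per Ensembl gene, without normalization. The submitters' processing notes name cutadapt 1.2.1, TopHat2 2.0.9, HTSeq 0.5.4p3 and GRCm38, and reads on several places or several genes were left out by the counting. Read length, strand setting and annotation release are not given in the sources used here. The 5 closing lines of each table (reads on no gene, ambiguous, multiply aligned and so on) were left out of library sizes and tests. Together they came to 43.9 to 58.7% of a table's total.

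Symbols came from GENCODE M21 (37607 of 38924 identifiers). Counts were fitted with edgeR 4.0.16 (R 4.3.3, limma 3.58.1): TMM, filterByExpr (minimum count 10, minimum total 15, leaving 16645 genes), robust quasi-likelihood F-test, 1 fit of 12 tumors in 3 groups, Benjamini-Hochberg within a contrast at 0.05. SE is the absolute log2 fold change over the square root of F. With 31872342 to 44215054 reads per tumor, 1 CPM is 31.9 to 44.2 reads. Nothing says that tumors of a group came from separate mice, so p-values measure the spread between these tumors. The fit was tested on simulated counts. DESeq2 1.42.0 and other settings were alternatives.

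The 5 genes and the lists were chosen with earlier results of these data known. Named besides them were, per list, up to 4 genes called in any contrast by smallest adjusted p, the 2 most abundant, and 8 genes most like summed hemoglobin on each of 2 measures (average log2 CPM of at least 0, pseudocount 0.1). Alas1 and the defining precursor markers were named after their values were seen or as markers. Of 170 list symbols 1 (Ahsp) did not match. Some named genes and markers are not reported here.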

Additional observations from a re-analysis of the deposited data

How the results depend on the processing

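Limits: hemoglobin reads in treated tumors were few (61 to 784 per tumor), Hbb-bt, Hba-a2 and Alas2 there had as few as 2, 3 and 0, near-identical copies lower the counts, and prefix and treatment cannot be told apart. In each of the settings tried, all 15 log2 fold changes of the 5 genes that could be computed kept their sign and moved by less than 1 SD of the replicates. So did the hemoglobin sum, with only the alpha or only the beta pair too. In the fits that left out 1 tumor this mark could hardly be missed. Taking 1 of 4 tumors away shifts the mean log2 level of a group by less than its SD, so nothing is concluded from it there. Leaving out each tumor in turn, the sum differed by -6.42 to -5.60 (sunitinib versus control), -5.02 to -4.06 (R+S versus control) and 0.97 to 1.93 (R+S versus sunitinib).

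Counts of calls were less steady, and the cause was not tested. Over all genes, sunitinib versus control gave 745 calls, DESeq2 1477, a minimum of 10 reads in every tumor 408, only the 8 tumors compared 380, and leaving out 1 tumor 440 (control 3) to 902 (sunitinib 5). R+S versus control gave 693, DESeq2 1688, only the 8 tumors 2557, and leaving out 1 tumor 292 (control 3) to 1627 (sunitinib 6). R+S versus sunitinib gave 1200, DESeq2 3008, no filter 501, only the 8 tumors 3, and leaving out 1 tumor 0 (R+S 5; 3870 at an unadjusted p under 0.05) to 2861 (sunitinib 5). Of the other erythroid genes, 2, 2 and 3 were called in the 3 comparisons. DESeq2 gave 4 in the first and 10 in the third, no filter 1 in the third, only the 8 tumors 1, 9 and 0, summing treated tumors of 1 prefix, with the 4 control tumors kept apart, 5, 5 and 6, and leaving out 1 tumor 1 to 4, 0 to 5 and 0 to 8. Endothelial calls (a count added after seeing the data) were 14, 13 and 10. With only the 8 tumors R+S versus sunitinib gave 0, and leaving out 1 tumor gave 13 to 15, 12 to 14 and 0 to 11. No named gene outside the 5 that was called in a comparison changed sign in any setting. Shared words fell with length, at 75 and 100 bases to 67.9% and 63.3% for Hba-a1, 84.6% and 79.5% for Hba-a2 and 9.92% and 8.88% for Alas2. The search for copies in the whole genome was not run. No paired analysis was possible because the groups compared share fewer than 2 replicate numbers.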
